A study of Mus musculus with 2 samples.

Results

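The genes described here are 32 genes that mark or act in the endothelium, the cell layer that lines blood and lymph vessels, out of 22072 gene symbols listed for the embryonic mouse tongue. They were taken by symbol, and all 32 had rows in both deposited tables, 40 transcript rows in all, whose FPKM (fragments per length of transcript and per depth of the library) were summed per gene. The members were read as 19 pan-endothelial genes, 3 arterial-leaning genes, 4 lymphatic genes, 4 vessel growth signals and 2 further genes.

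The mutant library was Osr1f/-; Wnt1cre, in which the conditional allele of the odd-skipped transcription factor gene Osr1 lies over a null allele and Cre is driven by Wnt1 regulatory sequence, active in the neural crest. The control library was Osr1f/+, with the conditional allele beside a wild-type one, and its label names no Cre. Both came from tongues of embryonic day 12 on a mixed background, and per the series' design text each RNA pool was made from 3 control and mutant pairs. With 1 library of each genotype no difference could be tested between genotypes, and every ratio below is mutant over control and compares 2 libraries.

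Endothelial cells arise from mesoderm, whereas Wnt1-driven Cre acts in the neural crest that gives the tongue its connective tissue. By the genotype labels, endothelial cells of the mutant embryos would therefore carry 1 null allele of Osr1 without having lost the conditional one. VEGF ligands from surrounding tissue drive vessel growth through receptor tyrosine kinases on the endothelium, angiopoietins act through the TIE receptors to stabilise or loosen vessels, and ETS and SOXF transcription factors hold the endothelial programme in place. Lymph vessels bud from veins under Prox1 and are guided by VEGF-C acting on Flt4.

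The depth behind the FPKM scale, estimated from the deposited coverage, was about 23100000 mapped reads in the mutant and 18900000 in the control library. For a 1 kb transcript, 3 reads amount to 0.130 FPKM in the mutant and 0.159 FPKM in the control library. The targeted gene Osr1 had 18.4 FPKM in the mutant library, against 56.8 FPKM in the control library, in a row that spans the whole transcript and so includes reads outside any deleted part. A gene is called measured if it reached 1 FPKM in at least 1 of the libraries and all its rows had an OK status. This held for 12383 genes, whose log2 ratio on the scale of FPKM plus 1 had a median of 0.00348. Of the markers of muscle, epithelium and mesenchyme, 9 of 9, 8 of 8 and 7 of 7 were measured. They are not particular to the tongue and so do not test the tissue label.

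The vessel genes as a group were present at nearly the same level in both libraries, where fewer cells of a type and less RNA per cell cannot be told apart in bulk tissue. All 19 pan-endothelial genes were measured, and each reached 1 FPKM in both libraries. The 32 members summed to 226 FPKM in the mutant and 225 FPKM in the control library. In all, 30 members were measured, while Lyve1 and Angpt2 stayed under 1 FPKM in both libraries. Lyl1 passed the filter only through its level in the control library and so could only count as lower. Of the 30, 17 were higher and 13 lower in the mutant library, with a median log2 ratio of 0.02 and an interquartile range from −0.05 to 0.10. Over all measured genes 51.2% were higher, and that range ran from −0.07 to 0.08.

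A gene was counted as past the fold when its ratio of FPKM plus 1 reached 1.2 in either direction, which 8.24% of all measured genes did (4.77% higher and 3.46% lower). Of the 30 members, 26 stayed within this fold. Pecam1, Erg and Angpt1 lay past it on the higher side and Ramp2 on the lower side, 4 genes in all. A second count used the 95% counting interval of each ratio, which lay wholly off 1 for 20.9% of all measured genes (10.7% above and 10.2% below). It lay above 1 for 4 members, Pecam1, Erg, Fli1 and Angpt1, and below 1 for 2, Kdr and Ramp2. These 6 of 30 members make 20%, a share near that of all genes. The intervals cover counting error only, hold no variation between embryos, and treat amplified reads as if they were independent molecules.

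**Figure D1:**
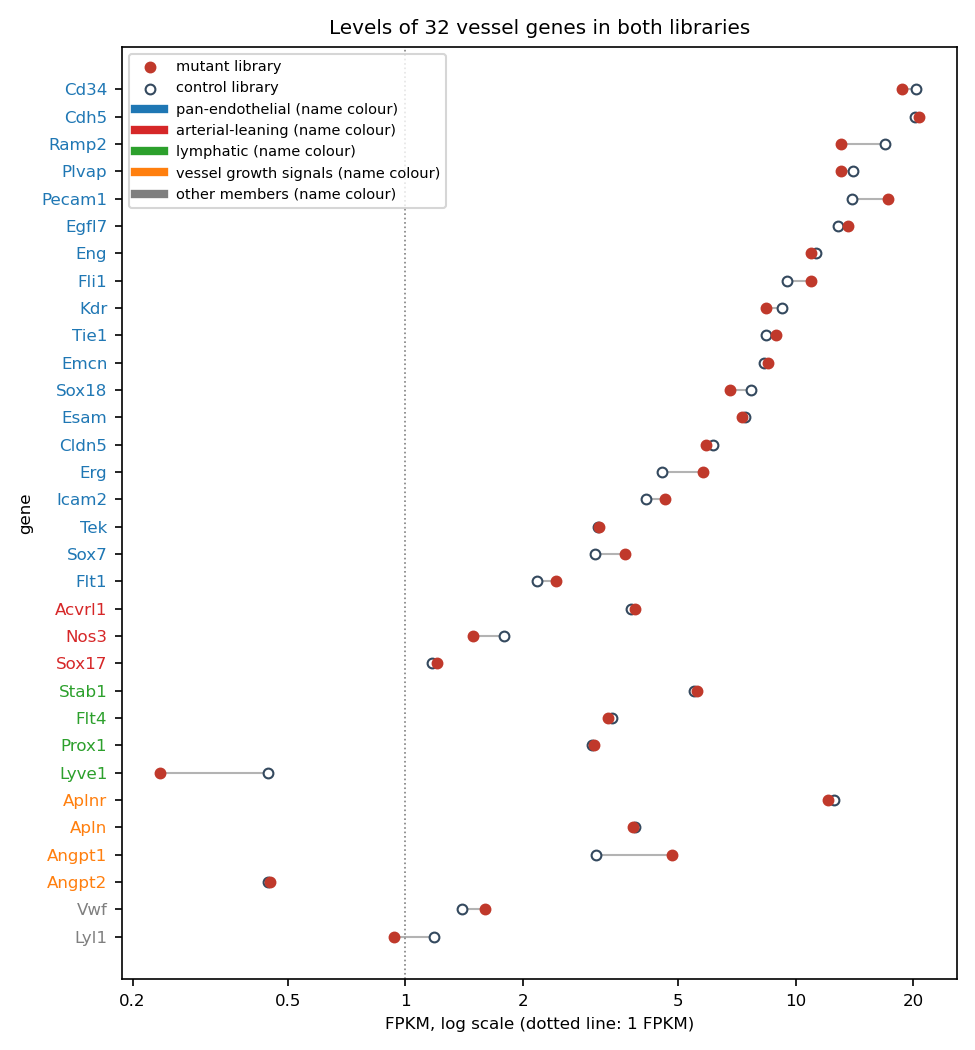
FPKM of the 32 vessel genes on a log axis, with filled points for the mutant and open points for the control library and gene names coloured by list. Most pairs of points nearly coincide, Pecam1, Erg and Angpt1 sit to the right in the mutant library and Ramp2 to the left, and Lyve1 and Angpt2 lie left of the dotted line at 1 FPKM in both libraries.

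Among the junction and surface proteins of the endothelium, Cdh5 was the most abundant in the mutant library. It encodes VE-cadherin, the adhesion molecule of endothelial junctions, and had 20.7 FPKM in the mutant and 20.2 FPKM in the control library (mm9 chromosome 8, 106625525 to 106668402). Its ratio of 1.03 had a counting interval from 0.958 to 1.10. Pecam1, the adhesion molecule CD31 of the same cell contacts (chromosome 11, 106515532 to 106576595), had 17.2 FPKM in the mutant and 13.9 FPKM in the control library. The ratio of Pecam1 was 1.24, with an interval from 1.13 to 1.35 that did not overlap the interval of Cdh5. Both markers stood among the most abundant members in both libraries. Esam, an adhesion molecule of tight junctions, had 7.26 FPKM in the mutant and 7.42 FPKM in the control library. Cldn5, the claudin of endothelial tight junctions, had 5.87 and 6.14 FPKM in the mutant and control library. Icam2, an adhesion molecule also carried by blood cells, had 4.63 FPKM in the mutant and 4.13 FPKM in the control library. The intervals of Esam (0.826 to 1.16), Cldn5 (0.772 to 1.18) and Icam2 (0.845 to 1.49) all included 1.

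The surface glycoproteins lay slightly lower or level in the mutant library. Cd34, a sialomucin of endothelium, blood progenitors and some mesenchymal cells, had 18.7 FPKM in the mutant and 20.3 FPKM in the control library, a ratio of 0.922. Plvap, which forms the diaphragms of endothelial pores, had 13.02 FPKM in the mutant and 13.98 FPKM in the control library, a ratio of 0.931 (0.828 to 1.05). Emcn, a sialomucin of veins and capillaries, had 8.46 FPKM in the mutant and 8.31 FPKM in the control library (ratio 1.02, 0.848 to 1.21). No interval of these genes excluded 1, although that of Cd34 (0.844 to 1.004) ended just above it.

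The receptors for vessel growth factors all stayed within 1.2-fold. Kdr, the main signalling receptor for VEGF-A (chromosome 5, 76329299 to 76374453), had 8.40 FPKM in the mutant and 9.23 FPKM in the control library. Its ratio of 0.911 had an interval from 0.834 to 0.996, whose upper end lay just under 1. Flt1, which binds VEGF-A as a decoy with little signalling, had 2.43 FPKM in the mutant and 2.17 FPKM in the control library (ratio 1.12, 0.952 to 1.32). A single row stood for Flt1, so its soluble and membrane forms were not separated. Tie1, the orphan receptor of the TIE pair (chromosome 4, 118143796 to 118162454), had 8.88 FPKM in the mutant and 8.38 FPKM in the control library (ratio 1.06, 0.953 to 1.18). Tek, the angiopoietin receptor TIE2, had 3.12 FPKM in the mutant and 3.11 FPKM in the control library (ratio 1.005, 0.854 to 1.18). Eng, the co-receptor endoglin for BMP ligands of the blood, had 10.9 FPKM in the mutant and 11.2 FPKM in the control library (ratio 0.973, 0.876 to 1.07).

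The stretches ahead of the starts of Kdr and Tie1 are shown because both receptors stayed within 1.2-fold and differ in their copies of GGAAG. This run is longer than the ETS core GGAA, whose copies were not counted. Each run is the 250 bases before the RefSeq start on GRCm38.p6, written on the strand of the gene, and capitals mark GGAAG or its reverse complement CTTCC. The Kdr stretch (chr5:75978456-75978705, minus strand) held 1 match and the Tie1 stretch (chr4:118489850-118490099, minus strand) held 6.
Kdr: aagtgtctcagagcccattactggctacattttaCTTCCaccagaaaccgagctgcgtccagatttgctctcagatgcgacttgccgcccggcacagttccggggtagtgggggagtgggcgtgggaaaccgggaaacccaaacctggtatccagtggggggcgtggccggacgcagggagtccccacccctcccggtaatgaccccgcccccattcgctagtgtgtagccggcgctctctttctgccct
Tie1: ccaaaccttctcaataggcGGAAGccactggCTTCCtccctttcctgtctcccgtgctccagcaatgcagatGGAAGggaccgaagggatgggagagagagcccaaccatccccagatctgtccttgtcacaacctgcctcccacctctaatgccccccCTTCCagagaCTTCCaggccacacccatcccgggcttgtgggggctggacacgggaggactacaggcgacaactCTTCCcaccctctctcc
RefSeq promoters were at hand for 15 of the 32 members, with 20 starts, of which 16 (80.0%) held at least 1 match in the 250 bases. Of all 32851 starts, 64.1% did. A match is a run of letters and says nothing on binding.

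Secreted and hormone-related members included the lowest ratio among the measured genes. Ramp2 makes the calcitonin receptor-like receptor Calcrl into a receptor for adrenomedullin, and it had 13.1 FPKM in the mutant and 16.9 FPKM in the control library (chromosome 11, 101107648 to 101109564). The ratio was 0.773 (0.653 to 0.921), from about 264 reads in the mutant and 278 in the control library. At 872 nt its transcript was the shortest of any single-row member. The partner gene Calcrl had 4.90 FPKM in the mutant and 5.18 FPKM in the control library (ratio 0.947, 0.835 to 1.07), and the ligand gene Adm was under 1 FPKM in both. Egfl7, a matrix protein secreted by endothelium, had 13.6 FPKM in the mutant and 12.8 FPKM in the control library (ratio 1.06, 0.902 to 1.22). Vwf, the clotting factor stored by endothelial cells and platelets, had 1.60 FPKM in the mutant and 1.399 FPKM in the control library (ratio 1.14, 0.963 to 1.36).

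Of the ETS factors, the members Erg and Fli1 had ratios above 1. The more abundant ETS factors of the further endothelial list did not share 1 direction. Ets1 had 18.1 FPKM in the mutant and 19.2 FPKM in the control library (ratio 0.943, 0.888 to 1.01). Ets2 had 30.6 FPKM in the mutant and 28.7 FPKM in the control library (ratio 1.07, 1.007 to 1.13). Elk3 had 27.2 FPKM in the mutant and 25.1 FPKM in the control library (ratio 1.08, 1.02 to 1.15). Erg, which keeps junction genes active in endothelial cells (chromosome 16, 95581811 to 95751972), had 5.78 FPKM in the mutant and 4.54 FPKM in the control library, a ratio of 1.27 (1.06 to 1.53). Fli1, its close relative in endothelium and blood cells, had 11.0 FPKM in the mutant and 9.52 FPKM in the control library, a ratio of 1.15 (1.03 to 1.28) that stayed within the fold. The SOXF factors, which act in early endothelium and in arterial and lymphatic choice, did not share 1 direction. Sox7 had 3.66 FPKM in the mutant and 3.05 FPKM in the control library (ratio 1.197, 0.992 to 1.45). Sox18 had 6.77 FPKM in the mutant and 7.66 FPKM in the control library (ratio 0.885, 0.739 to 1.06). Lyl1, a bHLH factor shared by endothelium and blood progenitors, was near the limit of measurement with 0.936 FPKM in the mutant and 1.18 FPKM in the control library (ratio 0.790, 0.499 to 1.27).

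**Figure D2:**
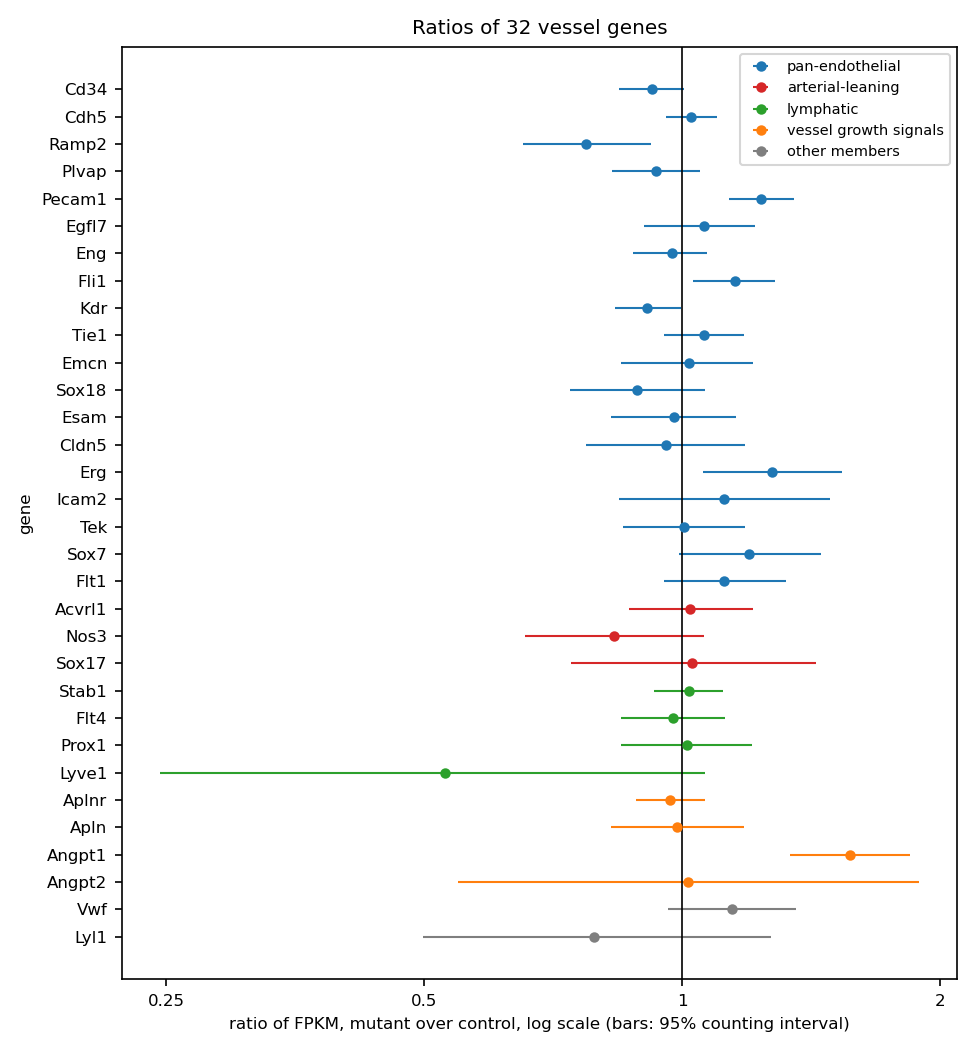
Ratio of FPKM, mutant over control, for the 32 vessel genes on a log axis, with bars for the 95% counting interval and colours for the lists. The bars of Pecam1, Erg, Fli1 and Angpt1 lie right of 1 and those of Kdr and Ramp2 left of it, while the widest bars belong to Lyve1 and Angpt2.

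Arterial, lymphatic and pan-endothelial members had like medians. The median log2 ratio was 0.02 over the 19 pan-endothelial genes, with 11 higher and 8 lower, 0.02 over the 3 arterial-leaning genes, and 0.01 over the 3 measured lymphatic genes. No arterial-leaning or lymphatic gene was past the fold or had an interval off 1. The differences between these lists were not tested. Sox17, the SOXF factor of arteries, had 1.205 FPKM in the mutant and 1.172 FPKM in the control library, and its ratio of 1.03 rested on 87 reads in the mutant and 69 in the control library, with an interval from 0.742 to 1.43. Acvrl1, the receptor ALK1 that partners endoglin, had 3.87 FPKM in the mutant and 3.79 FPKM in the control library (ratio 1.02, 0.868 to 1.21). Nos3, the endothelial nitric oxide synthase, had 1.49 FPKM in the mutant and 1.79 FPKM in the control library (ratio 0.832, 0.655 to 1.06).

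For the lymphatic genes the levels were low and close. Prox1, the factor that specifies lymphatic endothelium and is also made in other tissues such as muscle, had 3.04 FPKM in the mutant and 3.00 FPKM in the control library (ratio 1.01, 0.849 to 1.21). Flt4, the receptor VEGFR3, had 3.30 FPKM in the mutant and 3.38 FPKM in the control library (ratio 0.977, 0.849 to 1.12). Stab1, a scavenger receptor of lymphatic and sinusoidal endothelium and of macrophages, had 5.597 FPKM in the mutant and 5.498 FPKM in the control library (ratio 1.02, 0.928 to 1.12). Lyve1, the hyaluronan receptor of lymphatic endothelium and of some macrophages, had 0.235 FPKM in the mutant and 0.444 FPKM in the control library. Its ratio of 0.529 came from about 14 reads in the mutant and 22 in the control library, and the interval ran from 0.246 to 1.06, so a difference was not detectable at this depth. 

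The vessel growth signals held the highest ratio of all members. Angpt1, the ligand that activates Tek and is made by mural and mesenchymal cells around vessels, had 4.81 FPKM in the mutant and 3.07 FPKM in the control library (chromosome 15, 42256271 to 42508341). Its ratio was 1.57 (1.34 to 1.84), from about 453 reads in the mutant and 236 in the control library. Angpt2, the ligand made by endothelium that opposes Angpt1, had 0.450 FPKM in the mutant and 0.444 FPKM in the control library, with a ratio of 1.01 that could lie between 0.547 and 1.89. The apelin pair guides vessel sprouting and was level in both libraries. Apln, the peptide gene on the X chromosome, had 3.82 FPKM in the mutant and 3.87 FPKM in the control library (ratio 0.986, 0.826 to 1.18). Aplnr, its receptor in veins and growing vessels, had 12.1 FPKM in the mutant and 12.5 FPKM in the control library (ratio 0.969, 0.883 to 1.06). Of the growth factors for Kdr, Flt1 and Flt4, Vegfa had 25.4 FPKM in the mutant and 23.1 FPKM in the control library (ratio 1.10, 1.02 to 1.18), and Vegfb and Pgf had ratios of 1.03 and 0.977.

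**Figure D3:**
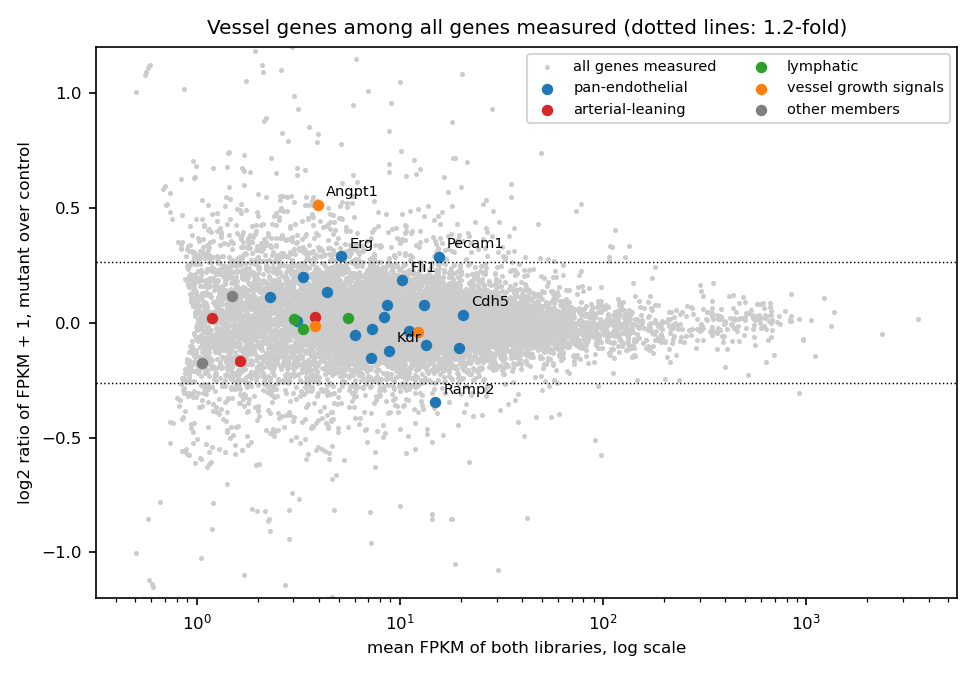
Log2 ratio of FPKM plus 1 against the mean FPKM of both libraries on a log axis, with all 12383 measured genes in grey, the 30 measured vessel genes in colour and dotted lines at 1.2-fold. The vessel genes lie inside the cloud of all genes, with Angpt1 at 0.51 and Ramp2 at −0.35 as the outermost members, and 64 genes beyond 1.2 on the log2 scale are not drawn.

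For 5 members the total came from several transcript rows, and these were not equally alike. In Pecam1 both rows were higher, with 11.0 FPKM in the mutant and 9.24 FPKM in the control library for NM_001032378, and 6.20 FPKM in the mutant and 4.67 FPKM in the control library for NM_008816. In Cd34 the rows had ratios of 0.854 and 0.999. Emcn, Eng and Egfl7 had near-equal totals but each had a row of at least 1 FPKM in the mutant library that was under 0.01 FPKM in the control library. The row NM_016885 of Emcn had 2.27 FPKM in the mutant library, while its other row had 6.19 FPKM in the mutant and 8.31 FPKM in the control library. The row NM_001146348 of Eng had 2.91 FPKM in the mutant library, the main row NM_007932 had 7.84 FPKM in the mutant and 9.78 FPKM in the control library, and NM_001146350 had 0.188 FPKM in the mutant and 1.47 FPKM in the control library. A row so split, with either library as the low one, was found in 9.40% of the 2650 measured genes of several rows. It was found in 3 of these 5 members, a pattern singled out after the values were seen. The authors' tool divided the reads among transcripts that share most of their bases, so a row is less certain than a gene total.

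In Egfl7 the rows differ in where the transcript starts, and the starts are shown because they carried unlike values. The row from the most upstream start, NM_178444 (mm9 chromosome 2, from 26436576), had 1.90 FPKM in the mutant library and under 0.01 FPKM in the control library. From the middle start (26439384), NM_198724 had 6.45 FPKM in the mutant and 8.81 FPKM in the control library, and NM_198725 was under 0.01 FPKM in both. From the downstream start (26442150), NM_001164564 had 5.25 FPKM in the mutant and 4.02 FPKM in the control library. RefSeq lists 3 starts of Egfl7 on GRCm38.p6 in the same order on the plus strand, and the 250 bases before each follow, with GGAAG and CTTCC in capitals. The upstream stretch (chr2:26580833-26581082) held 4 matches, the middle one (chr2:26583615-26583864) held 2 and the downstream one (chr2:26586386-26586635) held 0.
Egfl7 upstream: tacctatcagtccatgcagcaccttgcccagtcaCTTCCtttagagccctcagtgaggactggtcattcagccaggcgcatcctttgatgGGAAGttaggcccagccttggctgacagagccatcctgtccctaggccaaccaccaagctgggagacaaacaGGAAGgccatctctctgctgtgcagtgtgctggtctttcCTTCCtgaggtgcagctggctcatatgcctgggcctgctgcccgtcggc
Egfl7 middle: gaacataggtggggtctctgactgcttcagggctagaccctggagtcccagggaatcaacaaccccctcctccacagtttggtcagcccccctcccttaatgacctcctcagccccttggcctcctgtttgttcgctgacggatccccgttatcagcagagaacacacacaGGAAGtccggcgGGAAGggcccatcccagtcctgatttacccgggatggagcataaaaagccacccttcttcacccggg
Egfl7 downstream: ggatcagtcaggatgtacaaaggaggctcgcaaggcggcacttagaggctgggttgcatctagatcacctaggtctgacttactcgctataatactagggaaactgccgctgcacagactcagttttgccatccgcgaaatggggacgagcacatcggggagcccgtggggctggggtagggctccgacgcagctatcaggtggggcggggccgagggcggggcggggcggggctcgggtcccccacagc
The upstream row rested on about 61 reads in the mutant library.

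**Figure D4:**
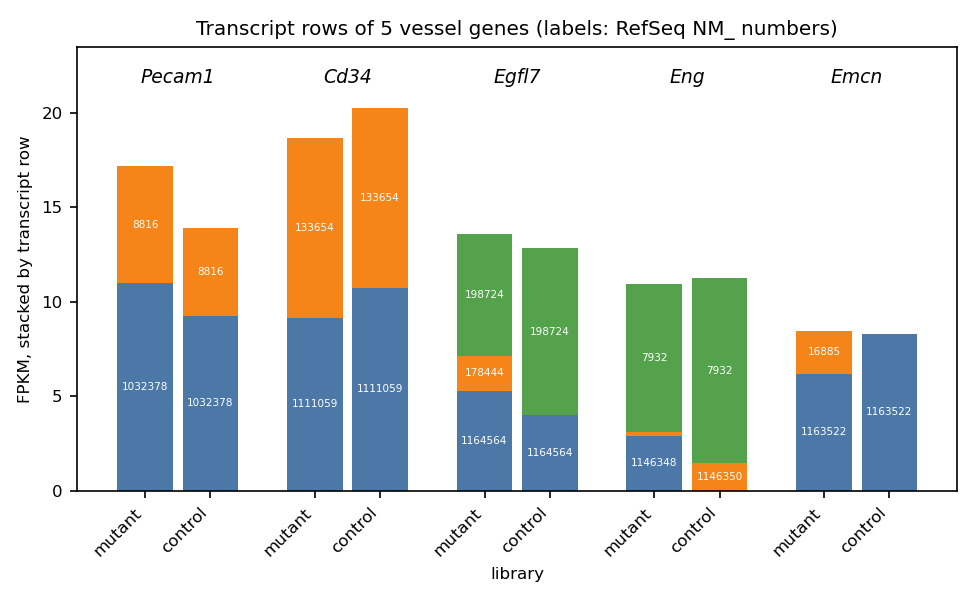
FPKM of Pecam1, Cd34, Egfl7, Eng and Emcn stacked by transcript row, with the mutant left of the control library and each segment labelled by the number of its RefSeq transcript. The bar of Pecam1 is taller in the mutant library in both segments, whereas Emcn, Eng and Egfl7 have bars of like height that are divided differently.

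Further vessel genes were read from lists that do not hold the members. Of 30 further endothelial genes 26 were measured, with 14 higher and 12 lower in the mutant library and a median log2 ratio of 0.0057. Among them S1pr1, the endothelial receptor for sphingosine 1-phosphate, had 5.75 FPKM in the mutant and 4.23 FPKM in the control library, a ratio of 1.36 (1.16 to 1.60). In the list 3 genes were past the fold, all higher, S1pr1 and the homeobox gene Hhex (2.33 FPKM in the mutant and 1.55 FPKM in the control library) among them. Cd93 and Elk3 had ratios of 1.09 (0.998 to 1.19) and 1.08 (1.02 to 1.15).

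Of 16 further arterial genes 14 were measured, with 4 higher and 10 lower and a median log2 ratio of −0.05. Past the fold were Nrp1 and Jag1, both lower and both also made outside vessels. Nrp1, a co-receptor for VEGF-A and semaphorins, had 16.3 FPKM in the mutant and 22.6 FPKM in the control library (ratio 0.722, 0.682 to 0.765), and its model overlaps that of Mir1903. Jag1, a Notch ligand, had 9.35 FPKM in the mutant and 12.0 FPKM in the control library (ratio 0.777, 0.717 to 0.842). Notch1 had a ratio of 0.906 (0.845 to 0.972) and the connexin gene Gja1 had 1.11 (1.08 to 1.15). Of 4 venous genes 3 were measured, where Nr2f2, the COUP-TFII factor of veins and mesenchyme, had 45.6 FPKM in the mutant and 53.7 FPKM in the control library (ratio 0.849, 0.814 to 0.886). Ephb4 and Nrp2 had ratios of 0.937 (0.900 to 0.976) and 1.01 (0.945 to 1.06).

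Of 11 further lymphatic genes 8 were measured, with 6 higher and 2 lower and a median log2 ratio of 0.07. The 6 include Clec2d, whose role in lymph vessels is uncertain and whose log2 ratio was 0.08. The gene with the highest ratio was Ccbe1, a secreted factor needed to process VEGF-C for lymphatic budding, with 2.46 FPKM in the mutant and 1.198 FPKM in the control library, a ratio of 2.05 (1.67 to 2.54), and its model overlaps that of Mir694. Vegfc, the gene of VEGF-C, had 3.77 FPKM in the mutant and 3.61 FPKM in the control library (ratio 1.05, 0.825 to 1.33). The forkhead gene Foxc2 and the integrin gene Itga9, both needed for lymphatic valves, had ratios of 1.21 (1.05 to 1.38) and 1.17 (1.09 to 1.27), and Pdpn had 0.945 (0.806 to 1.11). These genes are also made by mesenchyme or epithelium, and Gata2, Nr2f2, Nrp2 and Vegfc stand on a second list too.

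The cells around vessels were read from 14 mural genes, of which 11 were measured, 3 higher and 8 lower, with a median log2 ratio of −0.09. Pdgfrb, the receptor that recruits pericytes, had 26.5 FPKM in the mutant and 29.7 FPKM in the control library (ratio 0.891, 0.848 to 0.937). Kcnj8, a potassium channel gene of pericytes, had 4.39 FPKM in the mutant and 5.88 FPKM in the control library (ratio 0.747, 0.619 to 0.899). Anpep had a ratio of 0.720 (0.615 to 0.842). Tagln, an actin-binding protein of smooth muscle whose model overlaps that of Pcsk7, had 1.30 (1.06 to 1.61). The smooth muscle genes Acta2, Myh11 and Cnn1 of the list did not share this direction. Acta2, with 138 FPKM in the mutant and 142 FPKM in the control library, had a ratio of 0.973 (0.936 to 1.01). Myh11 and Cnn1, under 1 FPKM in both libraries, had ratios of 0.398 (0.284 to 0.552) and 0.403 (0.162 to 0.957).

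Markers of other cells of the tongue, some of which share genes with the members, differed in direction. The erythroid list of red cell genes had 10 of 10 measured genes lower in the mutant library, with a median log2 ratio of −0.22. Of these, 4 were past the fold and 6 had an interval below 1, against 3.46% and 10.2% of all measured genes. Whether this blood lay inside vessels was not tested. The list summed to 1198 FPKM in the mutant and 1453 FPKM in the control library, of which Hbb-y alone made 827 and 1022 FPKM. Of these 10 genes, Hbb-b2, whose model overlaps that of Hbb-b1, and Epor reached 1 FPKM in the control library alone and so could only count as lower. The summed pan-endothelial level was 183 FPKM in both. For macrophages, which share Stab1 and Lyve1, 8 of 10 measured genes were higher. Of the 10, 3 were past the fold on the higher side, against 4.77% of all measured genes. Only 1 of the 10 had an interval off 1, which lay above it, against 10.7% of all measured genes. The 10 genes summed to 35.5 FPKM in the mutant and 30.8 FPKM in the control library, and Timd4 was listed at 0 in both. For platelets, which share Vwf, 2 of 3 measured genes were higher, with a sum of 6.61 FPKM in the mutant and 5.84 FPKM in the control library. The mesenchyme list, relevant to Angpt1 and Cd34, had 3 of 7 genes higher and a sum of 846 FPKM in the mutant and 842 FPKM in the control library. Muscle genes, relevant to Prox1, had 3 of 9 higher and summed to 632 FPKM in the mutant and 601 FPKM in the control library. Epithelial genes had 7 of 8 lower and summed to 106 FPKM in the mutant and 122 FPKM in the control library. The part of these cells in the ratios of the vessel genes was not tested.

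**Figure D5:**
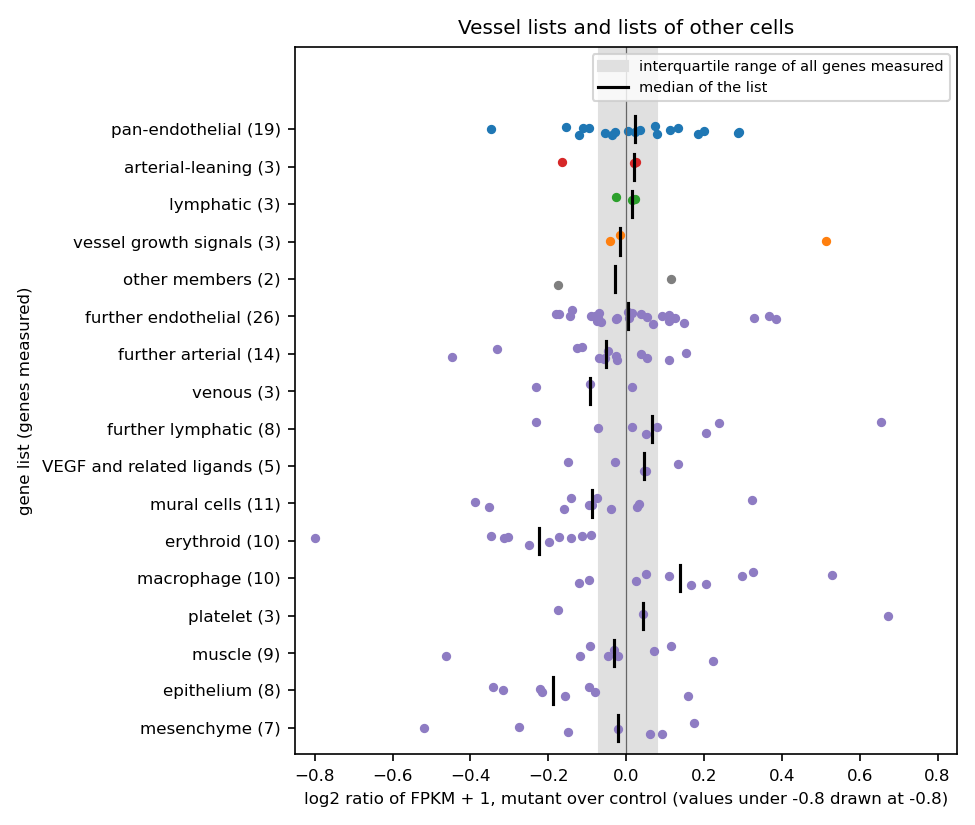
Log2 ratio of FPKM plus 1 for each measured gene of the vessel lists and of lists for other cells, with a black bar at each median and a grey band for the interquartile range of all measured genes. The medians of the pan-endothelial, arterial-leaning and lymphatic members lie in the grey band, while those of the venous, mural, erythroid and epithelial lists lie left of it and that of the macrophage list right of it.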

How the data were processed

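RNA of pooled tongues was measured in 1 mutant and 1 control library, grouped by the genotype labels. Alignment with TopHat 1.4.1 and Bowtie 0.12.7 to mm9 is stated in the submitters' processing notes. The version of Cufflinks, the length of the reads and the use of strand are not given in the sources. The authors deposited FPKM for each RefSeq transcript, scaled for length and mapped fragments per the file headers. They also deposited coverage, a signal without scaling for depth, and the transcript length. Starts in the files count from 0, since the difference of end and start equals the length in 11.7% of rows and the difference plus 1 in none, and are printed from 1.

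With Python 3.11.15, pandas and SciPy 1.17.1, rows were summed per symbol. The log2 ratio used a pseudocount of 1 FPKM, which understates differences of low genes, while plain ratios are of FPKM. In single-row genes of at least 1000 nt, coverage times length had a median of 47.3 bases within a set window of 30 to 65 bases. This value was taken as 1 read, which gave reads per gene. It lies near the middle of the window, and a cluster there was not shown. Depths, floors and interval widths rest on it. Each ratio was given an exact Clopper-Pearson 95% interval conditional on the sum of both libraries' reads. This step was tested on simulated reads that held counting error alone. The simulation did not test the value taken as 1 read. There was no test between genotypes. The floor of a value is 3 reads. Models of Egfl7, Eng, Angpt2, Cd34, Stab1 and Nos3 overlap those of Mir126, Fpgs, Mcph1, C030002c11rik, Nt5dc2 and Atg9b, so their values are uncertain.

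The members and the lists were chosen with earlier results of these data known. All 32 members are named, and of each other vessel list up to 4 genes of at least 5 FPKM with the largest absolute log2 ratios. Of these, 1 gene is not reported here. Calcrl, Adm, Ets1, Ets2, Clec2d, Hbb-b2, Hbb-y, Epor, Hhex, Ccbe1, Vegfc, Timd4, Acta2, Myh11 and Cnn1 were named after their values were seen. The list of VEGF and related ligands, 9 symbols with 1 gene under 2 names, had 5 measured genes, 3 higher and 2 lower, and a median log2 ratio of 0.05.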

Additional observations from a re-analysis of the deposited data

How the results depend on the processing

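No paired analysis was possible because each genotype has 1 library, and for the same reason no library could be left out. The alternatives changed the pseudocount to 0.1, the filter, the scale (TPM or a median of 0), the summing of rows, the overlapping models, the ratio of reads in place of FPKM, the mean in place of the median and the genes that other cells also express. Over them the median log2 ratio of the members ran from −0.03 to 0.03, and that of the pan-endothelial genes from −0.03 to 0.03. That of the arterial-leaning genes ran from −0.04 to 0.03 and that of the lymphatic genes from −0.03 to 0.02. All lay within the median bounds of the genes' counting intervals, a loose limit because these intervals are for single genes. At a threshold of 1.5-fold in the ratio of FPKM plus 1, 0 members were higher and 0 lower, where 3 and 1 were past 1.2-fold. Angpt1 had 1.43 on this scale, though its plain ratio was 1.57. With a pseudocount of 0.1, 2 members were lower, and with the highest row of each gene alone 4 were lower, since Emcn, Eng and Egfl7 then had ratios of 0.745, 0.802 and 0.733. On that setting 2 members were higher in place of 3, as Pecam1, with a ratio of 1.19 in its highest row, no longer reached the fold, and at the filter of 5 FPKM 2 were higher too. With members of at least 5 FPKM only, no arterial-leaning gene and of the lymphatic genes Stab1 alone was left. The depth limits Lyve1, Angpt2 and Lyl1 most, at 14, 26 and 39 reads in the mutant library.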
